A study of Arabidopsis thaliana with 4 samples.

Results

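The 451 focal gene-flank regions are short stretches of the Arabidopsis thaliana genome beside genes, at which 3 chromatin immunoprecipitation samples of phytochrome A placed a peak with nearly the same summit. They are 451 of 10015 regions obtained by merging the peak lists. A region belonged to the set when it held exactly 1 peak per replicate and was shorter than 3500 bp. Its 3 summits also had to lie within 100 bp of each other. The midpoint of the merged interval had to lie outside every protein-coding gene and within 1000 bp of an end of one (TAIR10). Since the peaks themselves chose the members, their enrichments and spans are given as a description and were not tested.

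The material was etiolated seedlings 4 days old. All were phyA201 mutants with a transgene in which the PHYA promoter drives phyA-GFP, a tagged form of the photoreceptor. All seedlings had received 3 h of far-red light. Chromatin from 5 g of seedlings, fixed with 1% formaldehyde, was precipitated with an anti-GFP antibody and sequenced (ChIP-seq). The 3 ChIP samples are described as biologically distinct, and an input sample of the same plants was not analysed here. There was no sample without light and no sample without the tag among the lists, so every value below describes irradiated, tagged plants. Whole seedlings mix all cell types, and fewer cells with binding cannot be told apart from less binding per cell.

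Phytochrome A is the photoreceptor through which seedlings perceive far-red light. After irradiation it moves into the nucleus with the help of FHY1 and FHL, where it acts on transcription factors such as the PIF proteins and on the COP1 and SPA proteins that keep light responses off in darkness. It is thought to reach chromatin through such partners and not through a DNA-binding domain of its own. In the compact Arabidopsis genome the space between neighbouring genes is short, and it holds promoters as well as the sequence after genes. A peak is a stretch called as having more ChIP reads than background, and its summit is the position of the highest signal. Fold enrichment is taken to be the authors' ratio of the signal to background, and the sources used here do not say how that background was set. The gene table used gives no strand, so a flank may be the promoter side or the far side of a gene.

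The lists held 6037 to 7534 peaks and 4951883 to 11110782 reads in peaks. The 451 regions supplied 6.37, 5.99 and 7.47% of the peaks of replicates 1, 2 and 3 and 5.61, 5.79 and 7.0% of the reads in peaks. Library totals are unknown, so levels of different lists were not compared by a test.

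Of the 10015 merged regions, 3323 had peaks of all replicates, 2640 of these had exactly 1 peak from each, and 2444 of those were shorter than 3500 bp. Summits lay within 100 bp of each other in 1020 of the 2444. By midpoint, 451 of the 1020 lay in a gene flank, 457 inside a protein-coding gene and 112 farther away. The share with coinciding summits was highest inside genes. Of single-peak regions under 3500 bp, 41.7% of 1082 flank regions met the limit of 100 bp, against 44.3% of 1031 inside genes and 33.8% of 331 farther away.

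**Figure D1:**
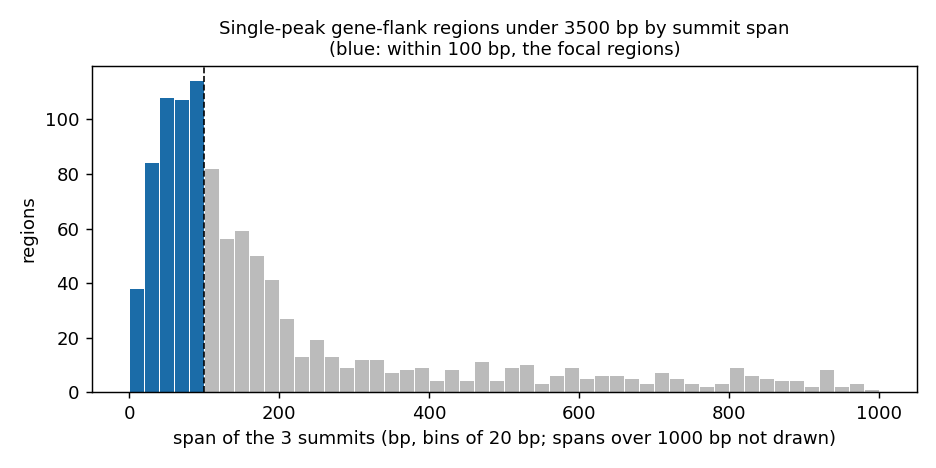
Number of single-peak gene-flank regions shorter than 3500 bp (y axis) by the span of the 3 summits in bp (x axis, bins of 20 bp), with the 451 focal regions in blue and the 631 regions of wider span in grey. The dashed line marks 100 bp, and the fullest bin is the last one inside it, with 114 regions.

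Within the set the summit span had a median of 60 bp and quartiles of 39 and 81 bp. In 38 regions it was at most 20 bp. The narrowest span, 3 bp, belonged to the region of AT5G65360, with fold enrichments of 5, 5.04 and 5.8 in replicates 1, 2 and 3. EMB2770 followed with 5 bp, then EC1.4 and AT5G58787 with 6 bp and BBX8, a B-box zinc finger gene, with 7 bp. The limit of 100 bp cuts through a continuous distribution, and the plot of summit spans shows no gap there. Of the 1082 flank regions, 62 had a span of 91 to 100 bp and 42 a span of 101 to 110 bp. At 100 bp were 4 regions, of which PKT3, IQD18 and GALS3 are named, with mean fold enrichments of 4.26 ± 0.46, 4.04 ± 0.74 and 3.76 ± 0.36 (SD, n = 3 lists, as for all means below). Just outside, at 101 bp, were AT1G64130, ABS2 and AT2G18860, with 4.87 ± 0.80, 4.66 ± 0.74 and 4.52 ± 0.83.

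The length limit removed 12 regions that met every other condition. The longest member, beside AT4G23860, measured 3429 bp and the shortest excluded region, beside SUVH5, 3538 bp. DIM1B and AT5G49170 were next below the limit with 3363 and 3319 bp, and BZIP61 and AT5G58520 next above it with 3563 and 3584 bp. The distance limit left out the 112 regions farther away. In distance, AT4G23860, RECQL2 and LSH3 lay just inside at 993, 991 and 986 bp. GDU4, AT1G76954 and AT3G16850 lay just outside at 1012, 1023 and 1027 bp, with mean fold enrichments of 5.07 ± 1.34, 3.87 ± 0.49 and 4.77 ± 0.20.

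The rule placed each region by its midpoint, and the summits mostly but not always followed it out of the gene. In 367 of 451 regions (81.4%, 95% Wilson interval 77.5 to 84.7%) all 3 summits lay outside protein-coding genes. In 24 regions 1 summit lay inside a gene, in 20 regions 2 did, and in 40 regions all 3 did. The interval covers counting error only and treats regions as independent. For these 40 the name gene-flank holds for the interval and not for the summit: their median summit lay a median of 115.5 bp inside a gene and at most 850 bp, and in 34 of them this was the gene nearest to the midpoint. Among them were CESA1, a cellulose synthase subunit gene, DOG1, a seed dormancy gene, and RPN12b, of the proteasome.

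Where the summits lay outside, they were most often close to the end of a gene. The median summit lay outside a gene and within 250 bp of its end in 208 regions (46.1%), at over 250 and up to 500 bp in 76 (16.9%), at over 500 and up to 1000 bp in 93 (20.6%) and farther out in 14 (3.10%). The fullest bin was the first 100 bp outside the gene with 102 regions (22.6%), followed by the next 100 bp with 84 (18.6%) and the third with 40 (8.87%). The corresponding flank regions with summits over 100 bp apart had 38.7% of their median summits within 250 bp outside a gene. All 3 summits lay outside genes in 65.0% of them and inside a gene in 4.44%, against 81.4 and 8.87% of the focal regions. Summits held within 100 bp fall more readily on the same side of a gene's end, so the rule itself bears on the shares with all 3 summits outside or inside. These shares are given side by side and were not tested.

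**Figure D2:**
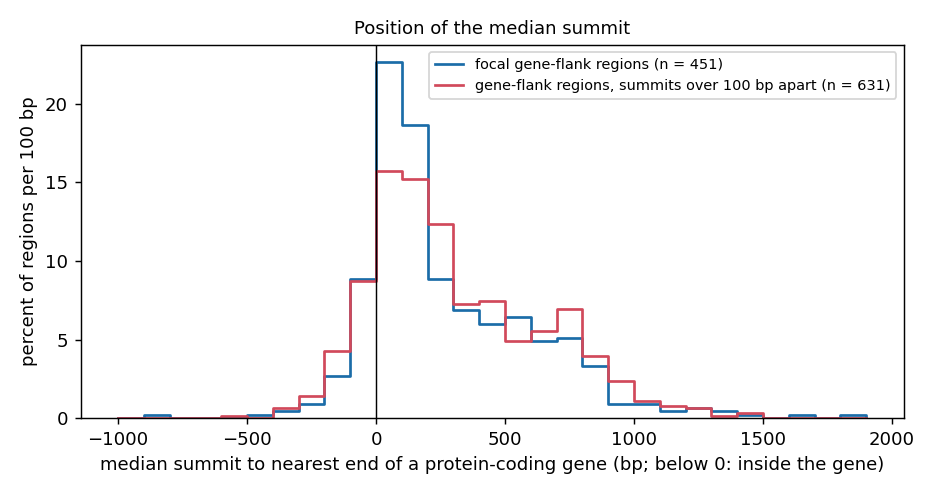
Percent of regions per 100 bp (y axis) by the distance of the median summit from a gene's nearest end in bp, protein-coding genes only (x axis, values below 0 lie inside the gene), for the 451 focal regions and the 631 flank regions with summits over 100 bp apart. Both lines peak in the first 100 bp outside genes, where the focal regions reach 22.6%.

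The nearest gene lay to the right of the midpoint in 216 regions (47.9%) and to the left in the others. A flank could often be given to more than 1 gene. The midpoint lay in the flank of a single gene in 252 regions (55.9%), of 2 genes in 191 (42.4%) and of 3 genes in 8 (1.77%). The merged interval reached into no gene body in 40 regions, into 1 in 218, into 2 in 187 and into 3 in 6. A median of 41.2% of an interval was gene body. Taking the median summit in place of the midpoint gave the same nearest gene in 371 regions (82.3%).

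The gaps between genes that held the midpoints had a median of 1602 bp (quartiles 624.5 and 3034.5 bp). All 23810 gaps between protein-coding genes had a median of 877 bp, but a longer gap offers more room for a midpoint, and the values are given without a test. In gaps of at most 500 bp lay 83 regions (18.4%), against 9.67% of the flank regions with summits far apart. All 83 reached into at least 2 genes, and in 53 of them (63.9%) no summit lay inside a gene. In gaps of 2001 to 4000 bp lay 114 regions, of which 100 (87.7%) had no summit inside a gene and 5 touched at least 2 genes. Median fold enrichment varied little with the gap, from 4.44 to 4.70 over the 5 classes.

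**Figure D3:**
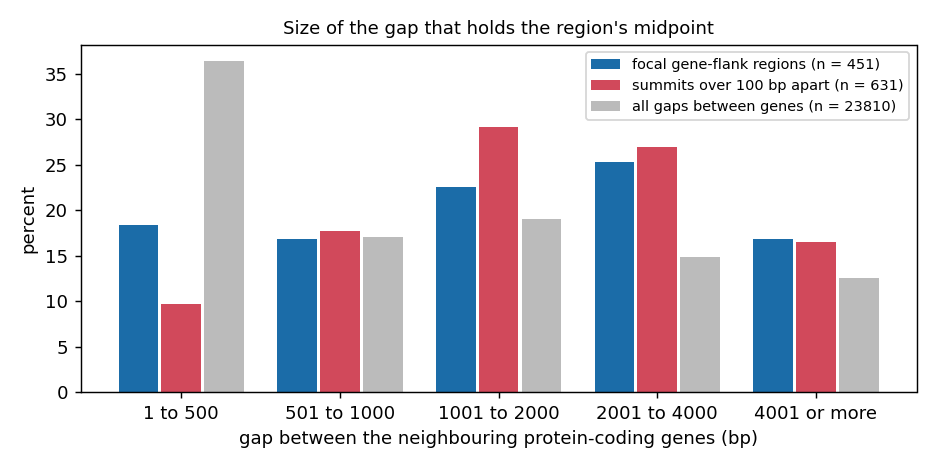
Percent of regions or gaps (y axis) in 5 classes of gap length between neighbouring protein-coding genes in bp (x axis), for the 451 focal regions, the 631 flank regions with summits over 100 bp apart and all 23810 gaps. The shortest class holds 18.4, 9.67 and 36.4% of the 3 sets.

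The merged intervals had a median length of 1600 bp and quartiles of 1171.5 and 2109 bp. Their peaks had median lengths of 1358, 1130 and 1050 bp in replicates 1, 2 and 3, against list medians of 1477, 1168 and 1117 bp. The stretch covered by all 3 peaks made up a median of 61.0% of the merged interval, and in all 451 regions it contained the 3 summits. The median summit lay a median of 135 bp from the midpoint, and at most 1139 bp.

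Enrichment at the focal regions was moderate and lay above the middle of each list. The rule asked for a peak in all 3 lists, which only 3323 of the 10015 merged regions had. The whole lists also hold peaks that other lists lack and are thus an unlike background. The other sets of shared regions given below stood above the middle too. Fold enrichment had a median of 4.99 in replicate 1, 4.37 in replicate 2 and 3.94 in replicate 3, where the whole lists had 4.38, 3.85 and 3.58. The mean over the lists ranged from 3.19 at STP4 to 24.6 at the highest region, with a median of 4.52. It exceeded 6 in 14 regions and was below 4 in 91. Within their lists the members stood at median percentiles of 71.9, 72.0 and 69.3. The 457 regions with coinciding summits inside genes stood at 66.9, 68.2 and 61.7, and the 631 flank regions with summits far apart at 58.7, 59.7 and 55.5. Other columns did not all order the sets in this way. The last column, read as a percent of false discoveries, was at most 1 in all 3 lists in 14.4% of the focal regions. The share was 22.7% of the flank regions with summits far apart and 12.3% of the regions inside genes. Median reads per peak in replicate 1 were 1243, 1583 and 1241 in the same order. None of these differences was tested.

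**Figure D4:**
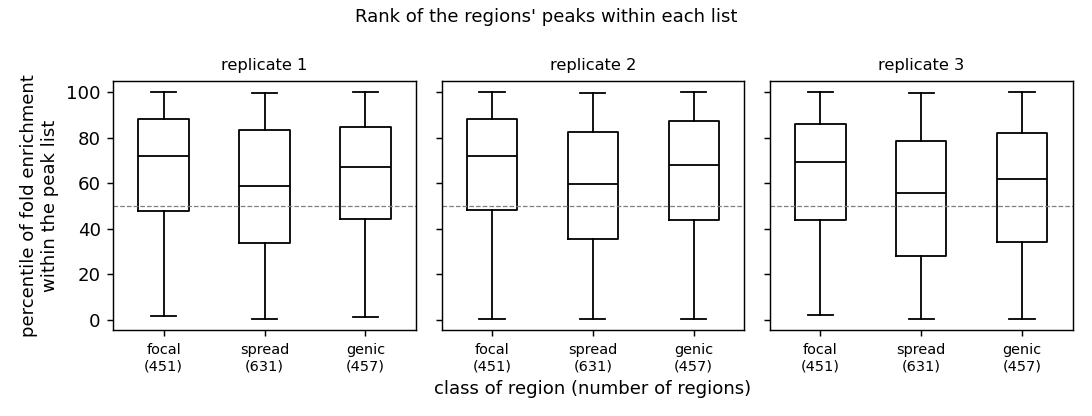
Percentile of fold enrichment within each replicate's peak list (y axis) for 3 classes of single-peak regions (x axis): focal gene-flank regions (focal), flank regions with summits over 100 bp apart (spread) and regions with summits within 100 bp and a midpoint inside a gene (genic). Boxes give median and quartiles, whiskers the lowest and highest region, and the dashed line the middle of the list; the focal medians are 71.9, 72.0 and 69.3.

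Coinciding summits did not mean equal enrichment. Of the 451 regions, 75 (16.6%) were in the top quartile of all 3 lists, 123 of 2 lists, 134 of 1 and 119 of none. In 41 regions (9.09%) the peak was in the bottom quartile of 1 list and the top quartile of another. Across the 451 regions the Spearman correlation of fold enrichment was 0.34 between replicates 1 and 2, 0.28 between 1 and 3 and 0.27 between 2 and 3. The flank regions with summits far apart gave 0.40, 0.30 and 0.29. These are correlations across regions of 3 shared libraries, and regions are not replicates. The highest value came from replicate 1 in 297 regions, from replicate 2 in 110 and from replicate 3 in 43. Within the set, the Spearman correlations of the mean percentile with span, length and distance to the gene were near 0, at -0.09, -0.04 and 0.05 across 451 regions.

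The 20 regions of highest mean percentile had mean fold enrichments of 5.55 to 7.73, apart from the first at 24.6 ± 4.42. That every one of the 20 was in the top quartile of all 3 lists follows from this choice and is no separate result. In 16 of them no summit lay inside a gene, and in 3 all summits did. The nearest genes encode proteins of unlike function, and 8 of the 20 carry no symbol in the gene table.

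The first region, on chromosome 1 from 18656601 to 18659171, had fold enrichments of 20.05, 28.87 and 24.92 in replicates 1, 2 and 3. No other member reached 9 in any list. It spans the 1107 bp from VIIIA (AT1G50360), which encodes a myosin, to FYPP1 (AT1G50370), the gene of a phosphatase that associates with phytochrome. Its midpoint lay 486 bp from VIIIA and 622 bp from FYPP1. Its summits, 65 bp apart at most, lay 363 bp inside VIIIA and 1471 bp from FYPP1, so that it met the rule by its midpoint and was not a flank site by its summits.

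**Figure D5:**
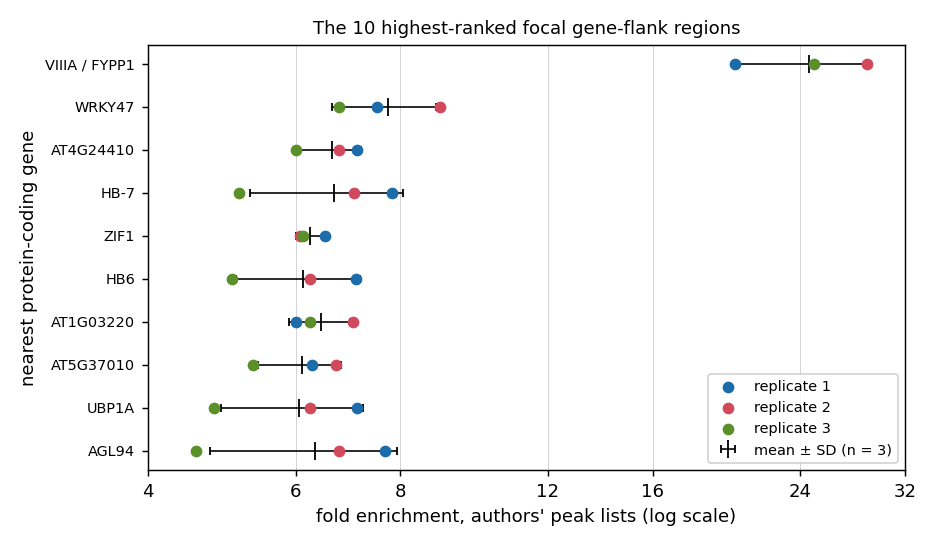
Fold enrichment in the authors' peak lists (x axis, log scale) for the 10 focal regions of highest mean percentile rank, named by the nearest protein-coding gene (y axis), with 1 point per replicate and black bars for mean ± SD of 3 lists. The region of VIIIA and FYPP1 lies between 20.05 and 28.87 and the means of the others between 6.05 and 7.73.

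The 20 regions are described here by what the nearest genes encode, transcription factors before others, and not by place. WRKY47 (AT4G01720) had 7.5, 8.93 and 6.77 in replicates 1, 2 and 3, in a gap of 7838 bp, with summits 683 bp from the gene and 38 bp apart. HB-7 (AT5G46880), a homeobox gene, had 7.83, 7.05 and 5.14, with summits 192 bp from the gene. HB6 (AT2G22430), a homeodomain-leucine zipper gene of the abscisic acid response, had 7.09, 6.25 and 5.04, with summits at the gene's end and 1 of them inside it. AGL94 (AT1G69540), a MADS-box gene, had 7.68, 6.76 and 4.57 over an interval of 559 bp that touched no gene body. In HB-7, HB6 and AGL94 the value fell in the same order as the medians of the lists, and at WRKY47 replicate 2 was highest.

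The 20 also held genes of transport and metabolism. ZIF1 (AT5G13740), at place 5, which encodes a zinc facilitator of the vacuole, had 6.51, 6.08 and 6.13, but the summits lay 203 bp from its neighbour SIG4, a sigma factor gene of the plastid RNA polymerase. ECA4 (AT1G07670), an endoplasmic reticulum-type calcium ATPase gene, had 7.75, 4.91 and 5.49. The values of ZIF1 lay close together and those of ECA4 did not. PANK1 (AT1G60440), a pantothenate kinase gene of coenzyme A synthesis, had 5.87, 6.72 and 4.85. OCT2 (AT1G79360), of the organic cation transporters, had 7.72, 6.36 and 4.31, in a gap of 493 bp in which the summits lay nearer to EMB1135, 187 bp away.

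Further named genes among the 20 were UBP1A (AT1G54080), an RNA-binding protein gene whose 3 summits lay just inside it, with 7.1, 6.25 and 4.8, and NET3A (AT1G03470), of a family of actin-binding proteins, with 7.74, 5.01 and 5.2. Those without a symbol were AT4G24410 (6.63 ± 0.56), AT1G03220 (6.43 ± 0.54), AT5G37010 (6.11 ± 0.70), AT1G20890 (5.65 ± 0.46), AT2G46220 (5.94 ± 0.85), AT2G20450 (5.77 ± 1.27), AT5G55040 (5.82 ± 1.45) and AT4G10930 (5.55 ± 0.81). Among these, AT1G20890 had summits only 13 bp apart.

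The spread between lists was measured after centring log2 fold enrichment on each list's median. Its SD had a median of 0.20 over the members, against 0.19 in the flank regions with summits far apart. The widest spread, 0.57, was at AT5G03140, with 8.38, 3.36 and 4.21 in replicates 1, 2 and 3. At AT1G19460, with an SD of 0.57, replicate 3 was highest (4.45, 3.25 and 6.41), and at AT1G73510, with 0.54, it was lowest (8.63, 6.44 and 3.47). AT4G35840 had 0.53 and CYP707A1 0.51. The smallest SDs, of 0.003 to 0.016, were those of SCPL11, AT3G56370, AT3G28700, AT3G08930 and AT5G41140. SCPL11 had 3.71, 3.26 and 3.02 in replicates 1, 2 and 3, the second lowest mean percentile of the 451 regions.

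The midpoints named 450 nearest genes, 1.64% of the 27444 protein-coding genes, and 653 genes (2.38%) had a midpoint in a flank. Only IQD18 was nearest to 2 members. A symbol in the gene table was carried by 228 of the 450 (50.7%), against 37.8% of all protein-coding genes. Of genes with a symbol, 2.2% were nearest to a member and 3.08% had a midpoint in a flank, and these shares are the closer background for gene lists made of named genes. The nearest genes had a median length of 2456.5 bp and all protein-coding genes 2078 bp. The 15 gene lists held 501 distinct genes, of which 15 (2.99%) were nearest to a member and 19 (3.79%) had a midpoint in a flank. With so few genes per list, no list was called apart from the background.

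In the list of photoreceptors and light signalling, 1 of 51 genes was nearest to a member (1.96%). It was PIF3 (AT1G09530), whose product is a phytochrome-interacting transcription factor, with 6.52, 3.95 and 3.77 in replicates 1, 2 and 3. Its summits lay 129 bp outside the gene, on chromosome 1 in the region from 3074923 to 3076182. Replicate 1 was far above the others there. By the wider tie 3 of 51 had a midpoint in a flank (5.88%), the others being FYPP1 and SPA1. Of all genes with a symbol, 2.2% were nearest to a member and 3.08% had a midpoint in a flank. SPA1, a partner of COP1 in the repression of light responses, had 4.96, 6.26 and 4.98 at a region 809 bp from it whose nearest gene was AT2G46360. No photoreceptor gene was nearest to a member.

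Of 51 photosynthesis genes 0 were nearest to a member and 1 (1.96%) had a midpoint in its flank, against 2.2 and 3.08% of all genes with a symbol. It was LHCB4.2, of the antenna of photosystem II, with 4.97, 4.37 and 4.12 at a region whose nearest gene was AT3G08930, and with summits 83 bp from LHCB4.2. Of 30 genes of tetrapyrrole and carotenoid synthesis none was nearest to a member, nor did any have a midpoint in a flank. Of 24 flavonoid and phenylpropanoid genes 1 was nearest. It was 4CL1 (AT1G51680), of the general phenylpropanoid pathway, where replicates 1 and 2 had 6.68 and 6.5 and replicate 3 had 3.55.

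Of the hormone lists, auxin had 3 of 53 genes (5.66%), against 2.2% of all genes with a symbol, and 3 genes are too few to set it apart. IAA2 and IAA8, which encode Aux/IAA repressors of auxin response, had 4.91, 4.46 and 4.09 and 4.91, 3.8 and 5.11 in replicates 1, 2 and 3. ARF10, an auxin response factor gene, had 4.79, 4.76 and 3.34. All summits of these 3 regions lay outside protein-coding genes, but far from the named genes. The median summit lay 880 bp from IAA2, 973 bp from IAA8 and 1018 bp from ARF10. At ARF10 this is beyond the 1000 bp that the rule allowed for the midpoint. The 3 genes were spread over the middle of the ranking, at places 172, 196 and 292 of 451. Abscisic acid contributed 1 of 35 genes, CYP707A1, which breaks the hormone down, with 4.53, 3.16 and 5.88 and with 2 summits inside the gene. Ethylene contributed 1 of 26, HLS1, which is needed for the apical hook of the dark-grown seedling, with 5.32, 4.33 and 3.52. Brassinosteroid (0 of 27) and gibberellin (0 of 26) genes were absent by either tie.

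Defence genes numbered 2 of 38 (5.26%), against 2.2% of all genes with a symbol, which is again too few to set the list apart. Both were of the salicylic acid pathway and both were weakly enriched. EDS1, an upstream regulator of immunity, had 4.03, 3.73 and 2.98, and ICS1 (AT1G74710), the isochorismate synthase gene of salicylic acid synthesis, had 3.78, 3.79 and 3.31. Replicate 3 at EDS1 was close to the lowest value of the lists, 2.95. Most summits at these genes lay inside them, 2 of 3 at EDS1 and all 3 at ICS1.

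Clock and flowering time genes numbered 2 of 29 (6.90%), against 2.2% of all genes with a symbol, and 2 genes are too few to set the list apart. SOC1 (AT2G45660, given as AGL20 in the gene table), a MADS-box gene that promotes flowering, had 7.35, 5.1 and 4.22, with summits 404 bp outside the gene. RVE2, a MYB gene related to CCA1, had 5.44, 4.9 and 3.82. LHY, a core clock MYB gene, was added by the wider tie, with 7.34, 4.34 and 4.32 at a region whose nearest gene was UMAMIT28 and with summits 264 bp from LHY. In each of these 3 regions replicate 1 was highest and all summits lay outside genes.

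The cell wall list had 2 of 29 genes (6.90%), against 2.2% of all genes with a symbol, and was not set apart by 2 genes. CESA1 had 5.79, 6.06 and 3.7, with all 3 summits inside the gene, and EXPA1, an expansin gene of wall loosening, had 5.52, 4.14 and 4.05, with 1 summit inside a gene. From the stress list 1 of 36 was nearest, CBF4, of the CBF family of cold and drought regulators, with 4.54, 3.93 and 4.09. Of the housekeeping genes 1 of 19 was nearest, TUA5, an alpha-tubulin gene, with 6.74, 4.85 and 4.38. The median summit lay 76 bp outside TUA5. This gene has near-identical tubulin relatives, and whether reads were split between them was not tested. None of 28 genes of other tissues was nearest.

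Among 22 families defined by their symbols, 19 of 1061 genes (1.79%) were nearest to a member and 23 (2.17%) had a midpoint in a flank. Both shares lay below the 2.2 and 3.08% of all genes with a symbol, and the difference was not tested. The families were taken by symbol prefix, so relatives under another symbol or without one were not counted. Transcription factor families so taken contributed few genes each. Of 67 genes with a WRKY symbol 2 were nearest, WRKY47 and WRKY72 (3.96, 5.7 and 5.7). Of 115 genes with a MYB symbol 3 were nearest, MYB70 (4.88, 5.93 and 5.56), MYB20 (7.01, 3.24 and 3.86) and MYB95 (3.98, 3.55 and 3.53). Homeobox genes reached 3 of 56 (5.36%), namely HB-7, HB6 and HAT1, an HD-Zip II gene with 4.47, 3.6 and 3.1. The 3 values lay closest together at MYB95, while at MYB20, with a mean of 4.70, replicate 1 stood far above the others.

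By symbol, single members came from the NAC (NAC047, 4.35 ± 0.95), bZIP (BZIP34, 4.27 ± 0.61), TCP (TCP2, 4.09 ± 0.17) and B-box (BBX8, 4.85 ± 0.61) families. The bZIP genes TGA3 and TGA1, named further below, carry other symbols and were not counted. XTH32 (3.75 ± 0.86) came from the xyloglucan endotransglucosylases and CYP79C1 (4.57 ± 1.22), beside CYP707A1, from cytochrome P450. SAUR15, RPS15A, ERF2 and WRKY21 were reached by the wider tie only. The SAUR family held just 16 genes with such a symbol, so family members without a symbol could not be counted. Families with no member by either tie included LCR peptides, arabinogalactan proteins, aquaporins, and heat shock factors and proteins. By symbol, 80, 49, 46 and 37 genes were taken for them.

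Genes that encode no protein were counted as well. Of the 451 intervals, 102 (22.6%) overlapped at least 1 such gene: 49 a long noncoding RNA, 31 a tRNA gene, 12 a miscellaneous RNA and 8 a pseudogene. For the flank regions with summits far apart the share was about the same, 21.7%. By type, the focal and spread shares were 10.9 and 13.0% for long noncoding RNA and 6.87 and 4.60% for tRNA. They were 2.66 and 1.74% for miscellaneous RNA and 1.77 and 0.95% for pseudogenes, and none was tested. The median summit lay inside a long noncoding RNA gene in 22 focal regions (4.88%, against 5.23% of the spread ones). It lay inside a tRNA gene in 7 (1.55%, against 0.48%).

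Some summits lay near tRNA genes. In 25 of 451 regions (5.54%, Wilson interval 3.78 to 8.05%) the median summit lay inside or within 100 bp of a tRNA gene. The same was found in 10 of 631 flank regions with summits far apart (1.58%, interval 0.86 to 2.89%) and in 11 of 457 coinciding regions inside genes (2.41%, interval 1.35 to 4.26%). Counted by overlap of the whole interval with a tRNA gene, the shares were closer, 31 of 451 (6.87%) against 29 of 631 (4.60%), and each of these sets overlapped 31 of the 625 tRNA genes. The limit of 100 bp from a tRNA gene was chosen after values were seen, and the difference was not tested. The intervals cover counting error only and treat regions of shared libraries as independent, so they are no test of it either. The 25 regions were of middling strength, with mean fold enrichments of 3.64 to 5.58 and a median of 4.58, near the 4.52 of all members, and 3 were among the first 100. In the highest of them, beside AT1G75560, the values were 5.86, 6.34 and 4.54 in replicates 1, 2 and 3. At EC1.4, which had 6.07, 3.54 and 4.39, the 3 summits fell inside 1 tRNA gene and 6 bp apart. Transfer RNA genes exist in many near-identical copies, and whether reads were split among them or gathered from them was not tested.

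The regions lay on all 5 nuclear chromosomes, with 139, 55, 92, 65 and 100 on chromosomes 1 to 5. Per 1000 protein-coding genes this was 19.4 on chromosome 1, 16.8 on 3, 15.8 on 5, 15.6 on 4 and 12.7 on 2. Each chromosome had a long stretch without a member, from 3531 kb on chromosome 5 to 6354 kb on chromosome 2, while the median spacing was 106 to 144 kb. Neighbouring members were within 10 kb of each other in 29 cases. The closest were those beside AT4G29700 and AT4G29710, 1988 bp apart, and those of NAKR1 and ANK1, 2030 bp apart. EXPA1 and AGL94 formed such a pair too, at 2961 bp, with mean fold enrichments of 4.57 ± 0.82 and 6.34 ± 1.60.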

How the data were processed

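Each replicate has 1 deposited peak list of 9 unnamed columns, made by the authors. Reads were aligned with Bowtie to TAIR10, per the submitters' processing notes. The peak caller, its settings and input use were not given in the sources used here. Columns were read from their values and order, which is that of MACS 1.4 tables. The deposited counts are reads per peak, the deposited score was read as minus 10 times log10 of a p-value, the authors' fold enrichment was taken as a ratio on a linear scale, and the final column of the deposited lists as a percent of false discoveries. Input reads and sequencing depth were not analysed here.

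Peaks overlapping by at least 1 bp were merged and the rule applied with Python 3.11.15, pandas 2.3.3 and numpy 2.4.6. Gene positions came from the NCBI table of TAIR10.1. As a check of the build, 35.1% of replicate 1 summits fell in protein-coding genes, and 63.7% when moved by 2000 bp. Percentile is the mid-rank of fold enrichment within a list. The named regions were the 20 of highest mean percentile, at most 4 per gene list, 3 on each side of each limit and the 5 largest and 5 smallest SDs. Of the 20, 1 is not reported here. Gene lists and families held symbols, and 24 of 538 list symbols matched no gene or several genes and were left out. No test was made, as there is 1 group and the rule used the peaks. Members and lists were chosen with earlier results of these data known. The rule was tested on simulated peaks beside isolated genes, where the number of members found, 65, equalled the number made. Only the numbers were compared, and short gaps between genes and values at the limits were not simulated.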

Additional observations from a re-analysis of the deposited data

How the results depend on the processing

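With all replicates, the number of regions was 451, with 450 nearest genes, 15 list genes and a median fold enrichment of 4.52. Summits within 50 bp gave 168 regions, 168 nearest genes and 5 list genes, and summits within 200 bp gave 739, 734 and 30. With the last deposited column at most 1%, there were 74 regions, 74 nearest genes and 3 list genes at a median fold of 5.24, and with fold enrichment of at least 4 there were 156, 156 and 4 at 5.11. A length under 2000 bp left 8 list genes. Leaving out each replicate in turn gave 918 to 1181 regions, 905 to 1169 nearest genes and 32 to 45 list genes, and 410, 428 and 427 of the 451 overlapped a region found without replicate 1, 2 or 3. The lists then need to match in 2 samples only. With every gene whose flank held the midpoint, light signalling had 3 genes and photosynthesis 1. Placing regions by the median summit gave 606, of which 377 of the 451 were overlapped. Requiring all summits outside genes (367 regions, median fold 4.55) and omitting the first region (450) were chosen after seeing the data. Gene starts, strand and sequence were not used here, so the planned share on the start side of genes and the planned ACGT motif share were not run. No paired analysis was possible because the lists hold 1 group. Library depth is unknown, and values near the lowest in every list, 2.95, limit what can be said of weak peaks.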

Other observations

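Several regulators outside the lists also had a focal region, and they are named here after their values were seen, with no test. ARF9, an auxin response factor gene, had fold enrichments of 5.57, 5.29 and 5.18 in replicates 1, 2 and 3, with summits 35 bp apart and 793 bp from the gene. LAX3, an auxin influx carrier gene, had 6.21, 3.31 and 4.16. ARR9, a type-A response regulator gene, had 5.04, 4.59 and 3.62. CKX5, a cytokinin oxidase gene, had 5.01, 7.47 and 3.98. GASA4, of a gibberellin-regulated family, had 4.71, 5.47 and 3.52. The 3 values lay close together at ARF9 and far apart at LAX3 and CKX5.

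The next genes were picked singly in the same way and stand for no pathway. SARD1, a transcription factor gene that promotes ICS1 transcription, had 5.7, 4.65 and 3.74, and the bZIP genes TGA3 and TGA1 had 4.4, 6.02 and 4.4 and 5.44, 3.18 and 3.01. Of genes linked to light, PAPP2C, for a phytochrome-associated protein phosphatase, had 5.51, 3.89 and 4.51, and SHB1, of blue light responses, had 4.09, 3.6 and 3.98. Both had all summits outside genes. SUVH4, a histone H3 methyltransferase gene, had 4.76, 4.67 and 5.13, with summits 42 bp from its neighbour AT5G13950.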
